A study of Mus musculus with 24 samples.

Results

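The 4 arrays described here measured RNA of primary murine alveolar type II cells under vehicle for 6 h, and form 4 of 24 arrays in 6 groups. The cells had been kept at an air-liquid interface for 3 days, until they formed a monolayer, and the vehicle was culture medium (DMEM) without a hydrogen sulfide donor. The strain, sex and age of the mice are not given in the sources used here, and the labels do not say whether the 4 replicates came from separate isolations. The p-values below therefore measure only the spread between these samples, which may be technical. The other arrays, used only where named, were the groups NaHS 6 h, vehicle 24 h, NaHS 24 h and GYY4137 at 24 h in 21% or 85% O2, with NaHS (a fast hydrogen sulfide donor) or GYY4137 (a slow one) at 100 µM. Members of the description were the non-control probes that the scanner software marked as well above background on all 4 arrays, 28719 of 55681 probes. They were ranked by their mean log2 signal.

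Type II cells make surfactant, a film of lipid and a few proteins that keeps air spaces open, and store it in lamellar bodies before secretion. They also act as progenitors of the thin type I cells that line most of the alveolus. In culture on a support they are known to flatten and to pass through a keratin-rich transitional state while surfactant genes decline. Cells isolated from lung can also carry fibroblasts, smooth muscle cells, airway cells and leukocytes along.

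A level here is log2 of the signal minus the 75th percentile of that array, so a level of 0 lies at that percentile and a step of 1 is a 2-fold change. Errors are standard deviations (SD) over the 4 arrays. Each gene was represented by its brightest probe, and 15372 of 23602 named genes were measured on all 4 arrays. Genes in the top 10% of these were called bright, which were 1537 genes or 6.51% of the named genes on the array. Genes with no probe above background on any of the 4 arrays were called dark, which were 4151 genes or 17.6%. The remaining 4079 genes were above background on some arrays only. The boundary of the bright class fell between Mapk6, at a level of 4.63 and just inside, and Ogfod1, at 4.63 and just outside. Brightness depends on how well a probe binds as well as on RNA abundance, so the ranks order probes and not transcripts. Among 4377 genes with several measured probes, the brightest and dimmest probe of a gene lay a median of 2.18 apart.

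The brightest probes were those of the machinery that makes proteins and of the actin cytoskeleton. Ribosomal protein genes were 31 of the 100 brightest named genes, and 80 of the 85 on the array were bright. Messages for ribosomal proteins and translation factors typically begin with a run of pyrimidines (C or T), the terminal oligopyrimidine tract, through which mTOR signalling sets their translation. RefSeq promoter windows of GRCm38.p6, from 250 bases before to 50 after a transcription start, were available for 64 of these 85 genes. A run of at least 8 pyrimidines on the sense strand that covered the start, or began by base 3 of the transcript, stood in 21 of their 76 windows, or 27.6%. The same run stood in 5.07% of all 32851 windows and in 5.36% of windows of other bright genes. These shares describe letters in the annotation and not a measured start site. The 5 sequences shown first have such a run, in capitals, and belong to bright genes of translation and iron storage. The 3 shown after them have TATAAA at 40 to 21 bases before the start, in capitals, and belong to a bright housekeeping gene, a bright mesenchymal gene and a surfactant protein gene that was not bright. Each runs from 40 bases before to 20 after the start, 5′ to 3′ on the sense strand.
Rpl35 (chr2:39005112-39005171, minus strand): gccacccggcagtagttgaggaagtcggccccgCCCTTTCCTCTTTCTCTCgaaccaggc
Rps10 (chr17:27635225-27635284, minus strand): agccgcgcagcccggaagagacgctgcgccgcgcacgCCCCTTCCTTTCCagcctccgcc
Rack1 (chr11:48800320-48800379, plus strand): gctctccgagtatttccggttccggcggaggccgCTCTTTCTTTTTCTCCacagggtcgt
Eef1a1 (chr9:78481705-78481764, minus strand): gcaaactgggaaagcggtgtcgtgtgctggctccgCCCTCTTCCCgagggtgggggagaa
Ftl1 (chr7:45459867-45459926, minus strand): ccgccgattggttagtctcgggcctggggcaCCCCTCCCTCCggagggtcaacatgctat
Ppia (chr11:6415827-6415886, plus strand): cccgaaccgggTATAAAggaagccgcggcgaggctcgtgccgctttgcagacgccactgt
Vim (chr2:13574271-13574330, plus strand): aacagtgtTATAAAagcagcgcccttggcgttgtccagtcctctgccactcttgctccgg
Sftpa1 (chr14:41131748-41131807, plus strand): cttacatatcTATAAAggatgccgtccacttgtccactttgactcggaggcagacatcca

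TATAAA on the sense strand between 40 and 21 bases before the start was present in 1.31% of windows of bright genes and 4.05% of those of dark genes. It was present in 1.61% for genes measured but not bright, 2.31% for all named genes on the array and 1.87% of all windows. The GC box core GGGCGG was searched on both strands over the whole 300 bases. It was present in 66.8% of windows of bright genes, 57.4% of those of genes measured but not bright and 17.9% of those of dark genes. All named genes on the array had 47.2% and all windows 35.7%. Olfactory receptors, 613 of the 4151 dark genes, had GGGCGG in 0.984% of their windows. The shares of both motifs were computed over annotated windows, which several starts of a gene can share, and no test was made of them.

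Actb, cytoplasmic beta-actin, had the brightest named probe. Its levels were 9.47, 9.33, 9.60 and 9.12 on replicates 1, 2, 3 and 4, a mean of 9.38 ± 0.20 (SD, n = 4). Rpl35, a protein of the large ribosomal subunit, followed at 9.26, 9.25, 9.29 and 9.03. Replicate 4 was lowest for both genes, and the highest array stood 1.39-fold above the lowest for Actb and 1.20-fold for Rpl35. Other ribosomal protein genes among the 30 brightest named genes included Rplp0, Rps14, Rpl41, Rpl10, Rpl37a, Rps20, Rps10, Rpl11 and Rps16, with means between 9.14 for Rplp0 and 8.92 for Rps16. Rn18s, the small-subunit ribosomal RNA, stood at 9.28 ± 0.20. The 5 ribosomal protein genes that were not bright were paralogs of canonical members, Rpl39l, Rpl7l1, Rps4l, Rpl10l and Rpl3l. Rpl39l had a level of -3.93 ± 0.36 (SD, n = 4), and Rpl10l and Rpl3l were above background on 2 arrays each.

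Translation factors followed the ribosomal proteins, with 17 of 22 genes bright. Tpt1, a growth-related translation-associated protein, reached 9.13 ± 0.29 and Rack1, the ribosomal scaffold, 8.92 ± 0.27. Eef1a1, which delivers aminoacyl-tRNA to the ribosome, was among the steadiest genes, at 8.07, 8.09, 8.03 and 7.95. Its highest and lowest arrays were 1.10-fold apart. Tubulin and chaperonin genes were bright in 20 of 22 cases, led by Tuba1b at 8.81 ± 0.16, and actin cytoskeleton and thymosin genes in 28 of 35. Tmsb4x, thymosin beta-4, which sequesters monomeric actin, stood at 8.93 ± 0.28.

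Energy metabolism was bright, with 60 of 76 mitochondrial respiration genes and 10 of 16 glycolysis genes in the bright class. Gapdh, the glycolytic dehydrogenase, had levels of 9.10, 9.02, 9.01 and 8.87, and Ldha, lactate dehydrogenase A, a mean of 8.33 ± 0.23. Cox6a1, a subunit of cytochrome oxidase, stood at 8.38 ± 0.27 and Atp5b, of the ATP synthase, at 7.91 ± 0.08. The single dark respiration gene was Cox7b2, a testis-type subunit, and Cox6b2, another testis-type subunit, had a level of -0.08 ± 0.68. Of the proteasome genes 20 of 39 were bright, among them Psmc3 at 7.5 ± 0.15, whereas the testis subunit Psma8 was dark. The immunoproteasome subunits Psmb8 and Psmb9 were measured without being bright, at 0.86 ± 0.58 and -1.28 ± 0.88.

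Iron and redox genes were bright in 15 of 25 cases. Ftl1, the ferritin light chain, stood at 8.82 ± 0.23. Fth1, the heavy chain, was 8.20, 7.41, 7.29 and 8.13, so that replicates 1 and 4 were higher than 2 and 3. The metallothioneins Mt1 and Mt2 had levels of 6.57 ± 0.23 and 5.89 ± 0.29 and were the bright members of a metal list of 11 genes.

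**Figure D1:**
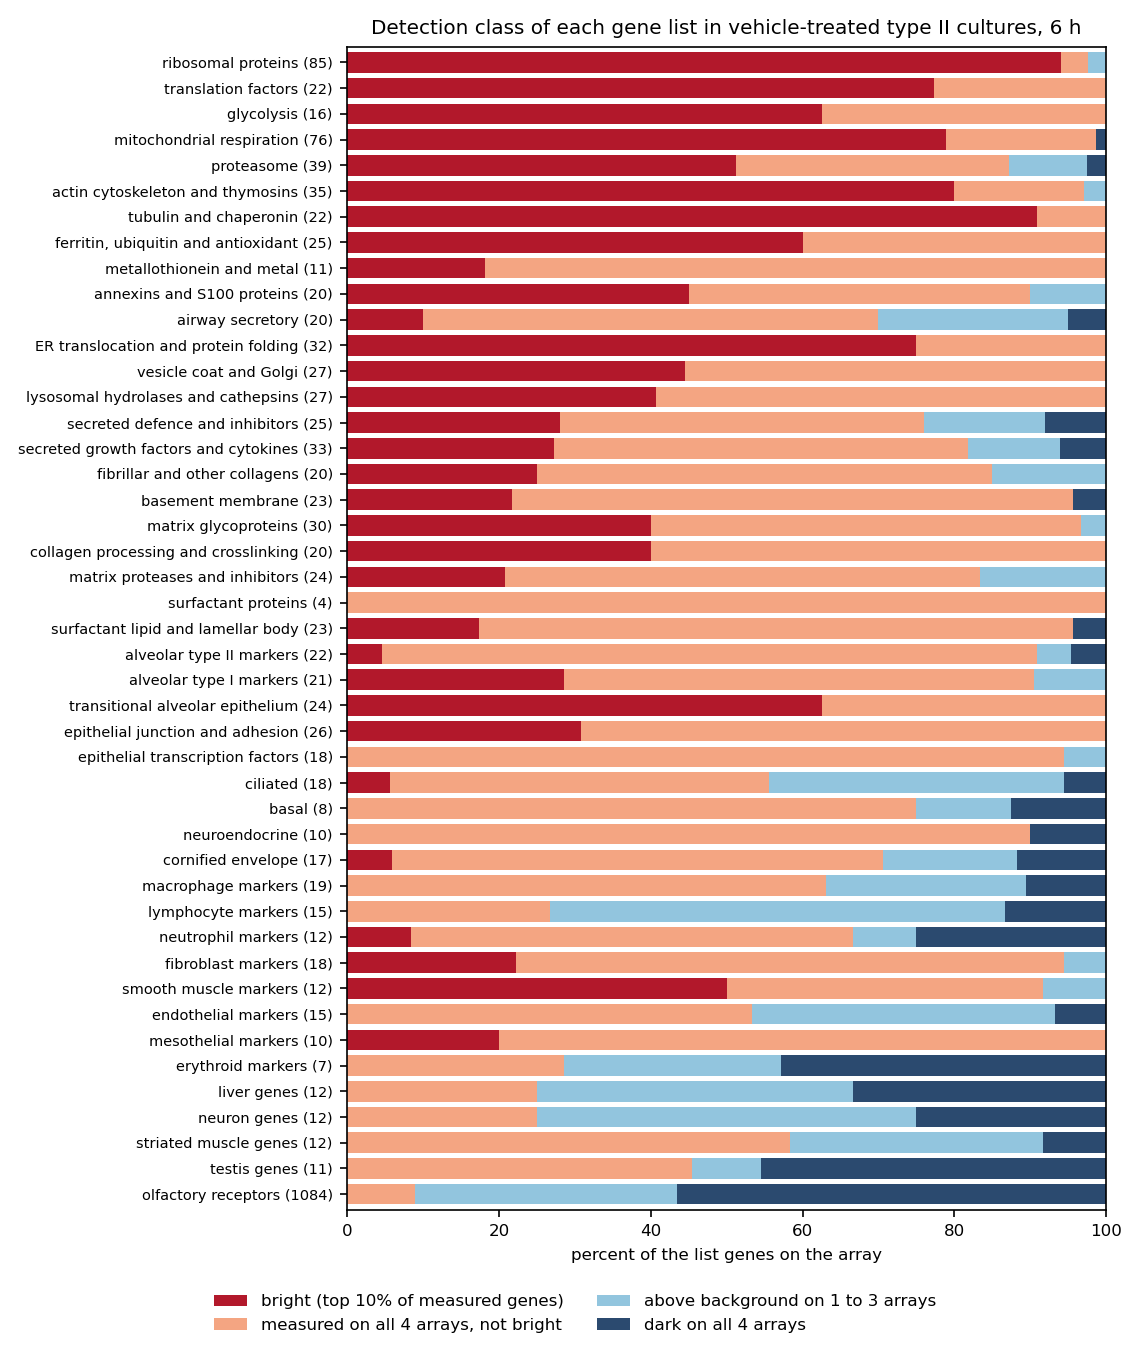
Horizontal bars give, for each gene list (genes on the array in brackets), the percent of genes that were bright, measured on all 4 arrays without being bright, above background on 1 to 3 arrays, or dark. Ribosomal proteins were bright in 80 of 85 cases, surfactant proteins in 0 of 4, and 613 of 1084 olfactory receptors were dark.

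The 4 surfactant proteins were all measured on the 4 arrays and none was bright, against 6.51% of all named genes, which puts few in a list of 4. Sftpc, the hydrophobic surfactant protein C that type II cells make and no other lung cell is known to make, had levels of 3.26, 3.61, 3.61 and 5.16, a mean of 3.91 ± 0.85 that put it in the top 15.8% of measured genes. Replicate 4 stood above the other arrays, which lay close together. Sftpd, a collectin of innate defence, was 3.60, 1.89, 2.22 and 4.96. Sftpb, needed for lamellar bodies, was -0.47, 0.40, 0.58 and 0.98, and its other probe was dimmer still. Sftpa1, the other collectin, was dimmest at -1.83 ± 0.43. Replicate 4 was highest for all 4 surfactant proteins, and for 2 of the 4 where each array was centred on its median instead.

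Of the 22 type II genes 20 were measured on all 4 arrays, or 90.9%, against 65.1% of all named genes. Such a share was not particular to type II genes. It was 90.5% for type I, 90% for neuroendocrine and 94.4% for fibroblast genes, but 55.6% for ciliated and 26.7% for lymphocyte genes. The bright class held 1 of the 22, or 4.55%, a share near the 6.51% of all named genes. The bright member was Fabp5, a fatty acid binding protein that many epithelia express, at 4.91 ± 0.21. Lamp3, of the lamellar body membrane, missed the class at 4.58 ± 0.19, as 4.78, 4.47, 4.70 and 4.36. Abca3, the transporter that loads phospholipid into lamellar bodies, was 2.99, 2.85, 2.97 and 3.80, with replicate 4 above the rest. Slc34a2, the type II phosphate transporter, was dark on all 4 arrays. Cebpa, a transcription factor of type II maturation, stood at -1.69 ± 0.25, and Nkx2-1, the lung lineage factor, was -1.54, -1.72, -1.79 and 0.65. Lyz2, lysozyme, which type II cells and macrophages share, had a mean of -0.62 ± 0.70.

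Of the markers that define the labelled cell type, Sftpc, Lamp3 and Abca3 were thus above background on every array and Slc34a2 on none. Ranked on the slide 2 arrays alone, 3 of 22 type II genes and 1 of 4 surfactant proteins were bright. In RNA of a whole culture, fewer cells of a type and less RNA per cell cannot be told apart.

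Genes of surfactant lipid synthesis and lamellar bodies were bright in 4 of 23 cases, Elovl1, Ctsh, Hmgcs1 and Acly. Elovl1, a fatty acid elongase, stood at 6.49 ± 0.24 and Acly, which makes cytosolic acetyl-CoA, at 5.42 ± 0.36. Ctsh, the cathepsin that processes surfactant proteins B and C, was 6.17, 5.21, 5.78 and 7.07. Hmgcs1, of cholesterol synthesis, went the other way, at 6.07, 6.08, 5.79 and 4.47, so that replicate 4 was highest for Ctsh and lowest for Hmgcs1. Scd1, the stearoyl-CoA desaturase, was 3.89 ± 0.41 and Fasn, the fatty acid synthase, 0.01 ± 0.40. Napsa, the aspartic protease that processes surfactant protein B, stood at -1.11 ± 0.88.

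Genes of the transitional state were bright in 15 of 24 cases. Krt18 and Krt8, which pair in simple epithelial keratin filaments, had means of 8.99 ± 0.30 and 8.21 ± 0.09. Krt8 was 8.20, 8.11, 8.23 and 8.32, a 1.16-fold range. S100a6, a calcium-binding protein, was 9.24, 9.05, 9.19 and 9.03, and Ccn2, a matricellular growth factor, 8.83 ± 0.10. Krt19 stood at 7.21 ± 0.45, Lgals3, galectin-3, at 5.59 ± 0.61 and Cldn4, a tight junction claudin that rises in injured alveoli, at 4.66 ± 0.32. The 9 members outside the bright class included Cdkn1a, the p21 cell cycle inhibitor, at 3.92 ± 0.15, and Fosl1, an AP-1 factor, at 1.16 ± 0.16. All 24 were measured on every array.

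Type I genes divided by member, with 6 of 21 bright. Timp3, a metalloproteinase inhibitor, had a mean of 7.26 ± 0.54, Pdpn, podoplanin of the apical membrane, 6.47 ± 0.24, and Krt7 6.46 ± 0.39. The other bright members were Gprc5a at 6.21 ± 0.81, Vegfa at 5.01 ± 0.67 and Emp2 at 4.74 ± 0.59. Most of these 6 are also made by other epithelial or mesenchymal cells. Ager, the receptor that marks type I cells, was 0.18, -0.11, 0.09 and 3.16. Hopx, a transcription cofactor of type I cells, was 0.15, -0.89, -0.59 and 2.36, and Clic5, a chloride channel protein, -1.68, -2.24, -2.33 and 2.25. On replicates 1 to 3 these 3 genes lay near or below the 75th percentile, and on replicate 4 all 3 lay above it.

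Adhesion genes were bright in 8 of 26 cases and all 26 were measured. Ctnna1, alpha-catenin of adherens junctions, stood at 6.88 ± 0.15 and Cldn7 at 5.45 ± 0.34. Cdh1, E-cadherin, missed the bright class at 4.45, 4.14, 4.66 and 4.92, and Epcam had a mean of 3.53 ± 0.23. None of 18 epithelial transcription factors was bright, against 6.51% of all named genes. Tead1, an effector of YAP signalling, had the highest mean at 4.01 ± 0.14 and Foxa1 stood at 3.15 ± 0.33.

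**Figure D2:**
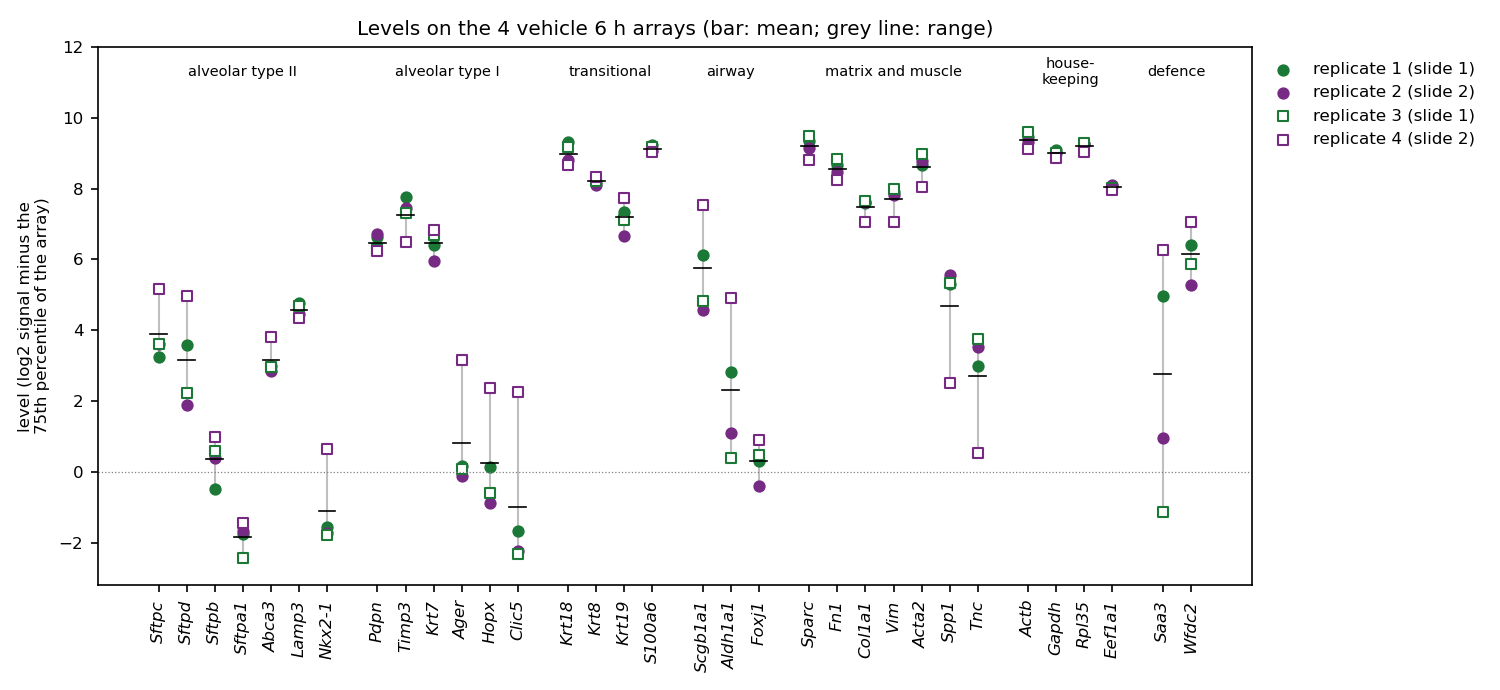
Each point is the level of a gene on 1 of the 4 vehicle 6 h arrays (vertical axis, log2 signal minus the 75th percentile of that array), with the mean as a bar and the range as a grey line. Krt18, Sparc, Actb and Rpl35 sat near 9 on every array, whereas Ager stood at 3.16 on replicate 4 and between -0.11 and 0.18 on the others.

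Of 20 airway secretory genes 2 were bright, Scgb1a1 and Clca1, or 10%, against 6.51% of all named genes. Scgb1a1, the secretoglobin of club cells, was bright at 6.13, 4.57, 4.84 and 7.53, and the arrays spanned 7.78-fold. Clca1, a secreted protein of goblet cells, was bright at 7.05, 7.04, 6.97 and 6.99, and hardly varied. It was read by a single probe, and the other goblet cell genes Muc5ac and Spdef were not bright, with Muc5ac at -3.53 ± 0.19. Muc5b, Cyp2f2 and Scgb3a2 were above background on some arrays only. Of 18 ciliated cell genes 1 was bright, Tubb4b at 6.62 ± 0.16, a tubulin that is not restricted to cilia, and Foxj1, the ciliation factor, stood at 0.32 ± 0.55. No basal cell gene was bright among 8, with Trp63 at 1.66 ± 0.26 and Krt5 at -1.70 ± 0.94. The 6.51% share of all named genes puts few bright genes in ciliated and basal lists this short.

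The general route of protein secretion was bright. Of 32 genes of ER translocation and protein folding 24 were bright, led by Pdia6, a disulfide isomerase, at 7.76 ± 0.27, Sec61g, of the translocation channel, at 7.5 ± 0.14, and Hspa5, the ER chaperone BiP, at 7.45 ± 0.11. Of 27 vesicle coat and Golgi genes 12 were bright, with the cargo receptor Tmed9 at 6.78 ± 0.30. Lysosomal genes were bright in 11 of 27 cases, with Cd63 at 8.06 ± 0.35 and Lamp1 at 7.11 ± 0.11.

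Secreted products in the bright class included chaperones, protease inhibitors, matrix proteins and cytokines. Clu, the extracellular chaperone clusterin, had a mean of 8.93 ± 0.13. Wfdc2, a small epithelial secreted inhibitor, was 6.40, 5.29, 5.88 and 7.05. Replicate 4 was highest for Wfdc2. Of 33 growth factors and cytokines 9 were bright, among them Cxcl12 at 6.13 ± 0.60, Pdgfa at 6.04 ± 0.46 and Csf1 at 6.02 ± 0.26, while Il1b and Ccl20 were dark.

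Matrix genes were among the brightest of all. Sparc, a collagen-binding glycoprotein, was 9.35, 9.15, 9.48 and 8.80 and ranked 4 among named genes, although its other probe had a level of 5.45. Fn1, fibronectin, was 8.65, 8.47, 8.85 and 8.26, and Thbs1, thrombospondin-1, 7.68 ± 0.06. Of 30 matrix glycoproteins 12 were bright. Of 20 collagens 5 were bright, Col1a1 at 7.48 ± 0.29, Col3a1 at 6.21 ± 0.37, Col16a1 at 5.12 ± 0.40, Col5a1 at 5.02 ± 0.72 and Col5a3 at 4.87 ± 1.34. Col1a2, the partner chain of Col1a1 in type I collagen, counted as above background on 3 arrays only, all but replicate 1. A probe whose spots were dropped by a quality flag also counted as not above background. Low signal and a dropped spot are thus not told apart here.

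Collagen processing was bright in 8 of 20 genes, with Fkbp10, a prolyl isomerase, at 7.10 ± 0.39 and Serpinh1, the collagen chaperone, at 6.95 ± 0.34. Basement membrane genes were bright in 5 of 23 (8 where 2 arrays above background sufficed), with Lamb1, the laminin beta-1 chain, at 6.40 ± 0.27 and Col4a1 at 5.27 ± 0.24. Col4a3, which type I cells make, was -1.83, -2.28, -2.21 and 0.37. The matrix proteases and inhibitors held 5 bright genes of 24, and Mmp9, a gelatinase, was measured at 0.18, 0.71, 0.99 and -2.80.

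Mesenchymal markers were bright beside the epithelial keratins. Of 12 smooth muscle genes 6 were bright. Tagln, an actin-binding protein of smooth muscle and myofibroblasts, had a mean of 8.91 ± 0.35, and Acta2, smooth muscle actin, was 8.67, 8.78, 8.98 and 8.05. Vim, the mesenchymal intermediate filament, was 7.92, 7.82, 8.0 and 7.06. Replicate 4 was lowest for all of them. Of 18 fibroblast genes 4 were bright (Vim, Col1a1, Col3a1 and Dcn), while the more restricted fibroblast genes Pdgfra and Lum stood at 1.46 ± 0.48 and -0.37 ± 0.26. Whether the mesenchymal RNA came from the epithelial cells or from fibroblasts in the culture cannot be told apart in whole-culture RNA.

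None of 19 macrophage, 15 lymphocyte or 15 endothelial genes was bright, against 6.51% of all named genes. That share puts few genes in lists this short. The levels of the list members ranged from dark upwards. The highest were Itgam, an integrin chain of myeloid cells, at 3.97 ± 0.24, beside 3.91 for Sftpc, and Kdr, the endothelial VEGF receptor, at 3.64 ± 0.38. Csf1r, the macrophage growth factor receptor, stood at 1.64 ± 0.22, and Cd4 and Cd3e, of T cells, at 1.81 ± 0.05 and 1.53 ± 0.28. C1qa and C1qc, complement components of tissue macrophages, and Cd3d and Cd3g, of the T cell receptor complex, were dark. Ptprc, the common leukocyte antigen, was above background on 2 arrays, and Pecam1, of endothelium, had a level of -2.59 ± 0.11. Csf3r, a granulocyte receptor, was the single bright neutrophil gene of 12, at 5.49 ± 0.27, while Cxcr2, Ngp and Retnlg were dark. This bright share of 8.33% was near the 6.51% of all named genes. The adult beta-globins Hbb-bs and Hbb-bt were dark. Mesothelial genes were bright in 2 of 10 cases, Krt19, shared with epithelium, and Msln, mesothelin, at 7.03 ± 0.45. Wt1, a mesothelial transcription factor, stood at 4.08 ± 0.54.

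Genes of unrelated tissues gave a view of the lower end. No liver, neuron, striated muscle or testis gene was bright among 12, 12, 12 and 11, against 6.51% of all named genes, which puts few in lists this short. Alb, Apoa1 and Fgg of liver were dark on all 4 arrays. Olfactory receptors, expressed in nasal neurons, were dark in 613 of 1084 cases, or 56.5%, and 97 were measured on all 4 arrays. How many were called above background depended on the array, with 150 on replicate 1 and 129 on replicate 3, both on slide 1, and 389 on replicate 2 and 408 on replicate 4, both on slide 2.

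The spread between arrays was small for bright genes and larger for dim ones. The median SD was 0.23 over all 15372 measured genes, 0.19 in the brightest 10% and 0.45 in the dimmest 10%. An SD above 1 was seen in 646 genes, or 4.2%. In the brightest 10% the share was 0.520%, and in the second bin from the dim end it was 15.9%. Every pair of arrays had a Pearson correlation between 0.969 and 0.989 across the 28719 probes above background on all 4 arrays, named or not. This describes the arrays, since probes and genes are not independent replicates. The steadiest bright genes with a usual symbol had SDs of 0.01 to 0.04, among them Ptma, prothymosin alpha, at 6.78, 6.78, 6.80 and 6.79, and Gpx1, glutathione peroxidase 1, at 6.23, 6.23, 6.20 and 6.22. These were chosen after their values were seen.

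**Figure D3:**
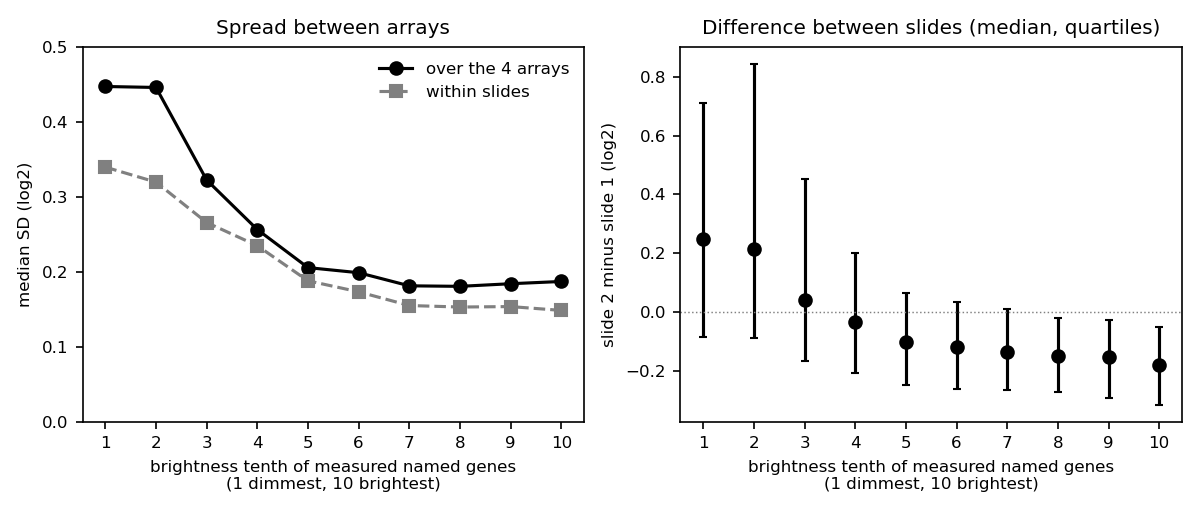
The left plot gives the median SD (log2) of genes in 10 equal bins of brightness, over the 4 arrays and within slides. The right plot gives the median difference between slide 2 and slide 1 (log2) with its quartiles. The median SD was 0.45 in the dimmest bin and 0.19 in the brightest, and the median slide difference passed from 0.25 to -0.18.

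Among the variable bright genes 2 recurring arrangements of the arrays are described, both chosen after the values were seen, and other variable bright genes had neither, such as Aoc2, an amine oxidase, at 4.78, 5.95, 6.14 and 5.92. In the first, replicate 4 stood alone. Spp1, osteopontin, was 5.30, 5.57, 5.35 and 2.52. Col5a3, a minor fibrillar collagen, was 5.16, 5.47, 5.94 and 2.91, and Il11, a cytokine induced by TGF-beta, 6.29, 6.46, 6.81 and 4.53. These matrix and cytokine genes were lowest on replicate 4, and so was Tnc, tenascin-C, a dimmer gene, at 2.98, 3.52, 3.77 and 0.55. Over whole lists, replicate 4 was highest in 16 of 19 measured type I genes and 15 of 20 measured type II genes, against 3928 of 15372 genes in all (25.6%). With each array centred on its median, which lowered replicate 4 to a median deviation of -0.53 over all genes, it was highest in 10 type I and 6 type II genes, against 714 in all. It was lowest in 10 of 11 smooth muscle genes and 17 of 20 collagen processing genes, against 6438 of 15372 in all. Many bright genes shared this, with 1095 of 1537 bright genes and 31 of 32 ER translocation and folding genes lowest on replicate 4. With quantile normalization replicate 4 was lowest in 9 smooth muscle, 16 collagen processing, 16 ER and 491 bright genes. Ribosomal protein genes were lowest on it in 78 of 83 cases, but in 30 of 83 with quantile normalization.

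The median deviation of replicate 4 from the mean of the 4 arrays was 0.89 for type I genes, 0.69 for type II genes and 0.66 for ciliated genes. The rise was not particular to these lists. It was 0.69 for 3 liver genes, 0.58 for 97 olfactory receptors, 0.57 for 10 mesothelial genes and 0.44 for 14 airway secretory genes. Replicate 2 was raised as well for the liver genes (0.88) and olfactory receptors (0.65). On replicate 4 the deviation was -0.57 for smooth muscle genes, -0.47 for collagens and -0.24 for ribosomal proteins, with -0.05 over all genes. Deviations relative to all genes were set side by side over 5 scalings (75th percentile, quantile, median, deposited table, normexp). These are not 5 separate checks. The 75th percentile and the median give the same relative values by construction. The deposited table nearly repeats quantile normalization (1.06 and 1.07 for type I genes). The relative deviation of replicate 4 ran from 0.87 to 1.07 for type I genes and from 0.51 to 0.74 for type II genes. It ran from -0.51 to -0.43 for smooth muscle genes, from -0.19 to -0.01 for ribosomal proteins and from 0.12 to 0.63 for olfactory receptors. The macrophage list moved with the alveolar lists on replicate 4, at 0.46 over 12 measured genes. With median centring it was -0.01, where all genes stood at -0.53. Relative to all genes it ran from 0.35 to 0.51 over the 5 scalings. C1qa and C1qc were dark, and the part of the macrophage list in the result was not tested. Replicate 2, on the same slide, deviated by -0.39 for type I genes and by 0.24 for smooth muscle genes, with -0.01 over all genes. With median centring, which shifts the whole array, smooth muscle genes stood at -0.14 and all genes at -0.40 on it. Without replicate 4, the median SD fell from 0.67 to 0.24 for type I genes, from 0.57 to 0.24 for type II genes, from 0.45 to 0.18 for matrix glycoproteins and from 0.23 to 0.17 over all genes. Leaving it out kept 1506 of the 1537 bright genes.

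In the second arrangement, replicates 1 and 4 exceeded replicates 2 and 3. Saa3, an acute-phase serum amyloid that epithelium and macrophages make, was not a bright gene. It had the largest SD of all measured genes, at 4.97, 0.97, -1.14 and 6.28. The highest array was 170.5-fold above the lowest. Mgp, an inhibitor of mineralisation, was 8.45, 7.31, 5.86 and 8.46. C3, the central complement component, was 6.41, 5.08, 3.90 and 6.48, and Ccl2, a monocyte chemokine, 6.58, 5.28, 4.01 and 6.79. For these 4 genes replicate 3 was the lowest array and replicate 4 the highest. Aldh1a1, a retinaldehyde dehydrogenase of club cells and also not bright, followed at 2.82, 1.10, 0.39 and 4.93. The arrangement of replicates 1 and 4 above 2 and 3 was seen in 8 of 10 mesothelial genes, 11 of 19 type I genes and 2640 of 15372 genes in all, or 17.2%. It was also seen in 10 of 17 epithelial transcription factors and 7 of 14 airway secretory genes. The count asked for no minimum gap, so it overlaps with the first arrangement and includes Ager and Clic5. In 9 of the 19 type I genes replicate 4 lay over 1 above every other array. It crosses the slides, since replicates 1 and 3 lay on slide 1 and replicates 2 and 4 on slide 2.

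**Figure D4:**
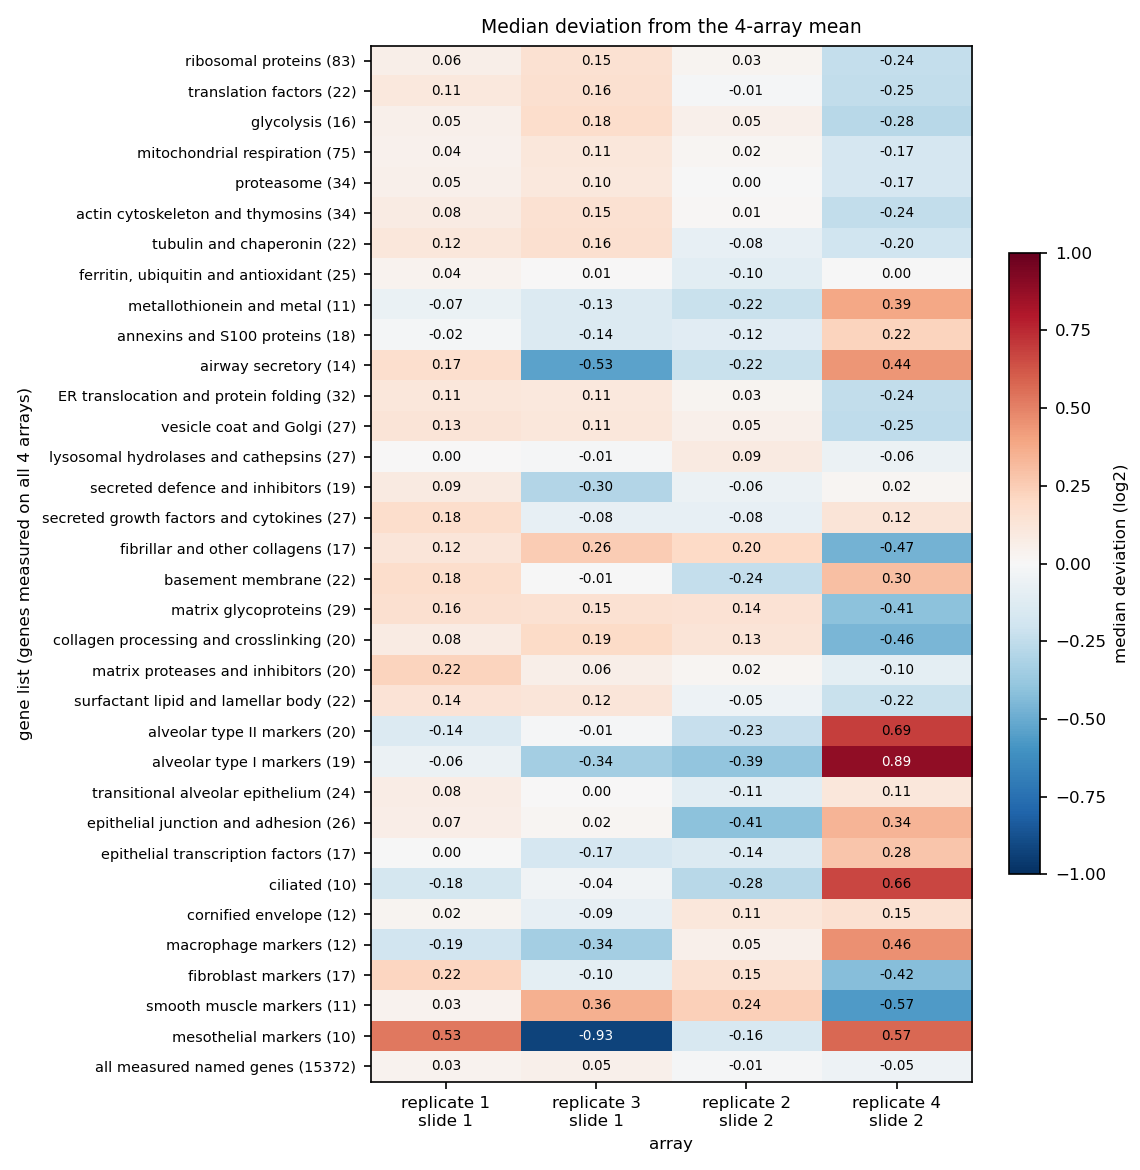
Colours and numbers give the median over the genes of a list of the deviation (log2) from the mean of the 4 arrays. The vertical axis holds all measured genes and each list with at least 10 genes measured on all 4 arrays, except olfactory receptors. The horizontal axis holds the arrays, ordered by slide. Olfactory receptors, not drawn, deviated by -0.57, 0.65, -0.49 and 0.58 on replicates 1, 2, 3 and 4. Replicate 4 stood at 0.89 for type I genes and -0.57 for smooth muscle genes, and replicate 3 at -0.93 for mesothelial genes; these 3 signs were the same under median centring.

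The slides also differed, mainly at the dim end. Between 68.1% and 72.2% of probes were well above background on slide 2, and between 54.8% and 55.3% on slide 1. Of the probes above background on 2 arrays, 5827 were above it on both slide 2 arrays alone and 9 on both slide 1 arrays alone. In limma over 23273 genes and unnamed probes, with Benjamini-Hochberg adjustment at 0.05, 979 were higher on slide 2 (4.21%) and 2 were lower (0.00859%), both of the latter without a gene name. Of these 981 calls 322 were named genes, 321 of them in the dimmer 50% of measured genes, and 0 of 1537 bright genes were called. No member of the surfactant, type II, type I or ribosomal protein lists was called, against 2.09% of all measured named genes. That share puts few calls in lists this short. With quantile normalization, the deposited values, normexp background correction or any 1 array left out, limma called 0 features, with 2196 to 6154 at an unadjusted p under 0.05. Leaving out an array left a single array on its slide, assumed to vary like the others, so these fits say nothing about stability. Median centring called 913 higher and 14179 lower, and a filter of 2 arrays 5790 higher and 21 lower.

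The largest called difference of a named gene was that of Mdh1b, a testis-enriched malate dehydrogenase relative, with levels of -3.30 and -3.39 on slide 1 and 1.17 and 0.65 on slide 2. The difference was 4.26 ± 0.24 (SE, n = 2 per slide, limma adjusted p = 0.0359). The vomeronasal receptors Vmn1r87 and Vmn1r52 and the olfactory receptor Olfr901 followed, with differences of 3.79, 3.59 and 3.66, and then Ltb4r2, a leukotriene receptor, at 3.55 and Duox2, an oxidase, at 3.22. Olfactory receptors made up 32 of the called genes, of 97 tested (33.0%), against 2.09% of all measured named genes. They were dim, at a median level of -2.75, and the calls lay at the dim end. In the 12 arrays of the groups NaHS 6 h, vehicle 24 h and NaHS 24 h, fitted with group as a term, 4207 of the same features were higher on slide 2 (18.1%) and 3942 lower (16.9%). Bright genes were called in that fit, with 594 of 1537 lower on slide 2 (38.6%) and 4 higher. The median difference of bright genes was -0.17. Of all named genes 3028 of 15372 were lower (19.7%), and of ribosomal protein genes 38 of 83. Of the 981 called in vehicle 6 h 955 were called there too, which is 97.3% of the first list and 11.7% of the second, and all 955 had the same sign. Mdh1b differed by 4.09 ± 0.18 in those arrays. Each slide held both treatments and both times in that experiment, and slide cannot be told apart from replicate number or from any isolation that the replicates of a slide share.

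The 7 brightest labelling spike-ins, control RNAs added to each labelling reaction, differed by -0.15 to -0.01 in log2 signal (slide 2 minus slide 1). The 3 dimmest were higher on slide 2, by 0.62 for E1A_r60_a104, 0.37 for E1A_r60_a107 and 2.66 for E1A_r60_3, which had log2 signals of 2.17 and 2.14 on slide 1 and 4.54 and 5.09 on slide 2. Among dim probes, the 2396 that were over 1 higher on slide 2 held a mean of 15.7 C and 13.9 A among their 60 bases, and the 6150 within 0.25 held 12.8 C and 17.2 A. Whether base composition takes part in the slide difference was not tested.

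Probes of 1 gene could lie far apart. The named probes of Glrx2, Zfp628, Kctd14 and Milr1 were among the 30 brightest, at 9.02, 8.94, 8.92 and 8.89, while the dimmest measured probes of the same genes stood at 3.05, 0.92, -3.08 and 0.78. Such a gap of over 3 was present in 323 of 662 bright genes with several measured probes. Of the 100 brightest probes 29 had no gene name and 27 were ribosomal protein probes, and ribosomal proteins have many near-identical copies whose RNA a probe cannot separate.

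Most of the brightest named genes were shared with the other groups. Of the 100 brightest named genes 97 were among the 100 brightest in NaHS 6 h, 95 in vehicle 24 h and 96 in NaHS 24 h. In the GYY4137 arrays, hybridised on 2 other slides, the count was 92 in 21% O2 and 88 in 85% O2. No test was made of these overlaps.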

How the data were processed

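Total RNA was labelled with Cy3 and hybridised to 1-colour Agilent mouse arrays (probes of 60 bases, mm9 design). Per the file headers, Agilent Feature Extraction (version 10.7.3.1) made the deposited intensity values by subtracting background, correcting trends over the array and setting low values to a surrogate; arrays were not normalized to each other. The authors' deposited value table holds log2 values with equal quartiles across the arrays of an experiment; how it was made is not given in the sources used here. It served as an alternative.

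Spots flagged as non-uniform or outlying were dropped, between 82 and 265 per vehicle 6 h array, and 0 spots were saturated. The precision of each level is limited by the number of arrays, 4. From each array its 75th percentile of log2 signal was subtracted. The highest-mean probe represented a gene, and a probe counted as above background where the scanner flag said so. Where all spots of a probe were dropped on an array, it counted as not above background there, so some genes above background on some arrays only may lack a spot. Gene names came from RefSeq (GRCm38.p6) by accession for 27515 probes, by current symbol for 3427 and by former symbol for 495; 1262 kept the name in the array files and 22982 stayed unnamed. The 2 slides were compared with limma 3.58.1 (R 4.3.3, with the package data.table, version 1.17.8) and Benjamini-Hochberg adjustment; the script was tested on simulated data. Python 3.11.15, numpy 2.4.6, pandas 2.3.3 and matplotlib 3.10.9 did the rest.

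The genes named are the 30 brightest with a usual symbol, the 3 brightest, 2 most variable and up to 3 dark members of each of 45 lists, the 8 largest called slide differences each way, and a fixed set of lung and housekeeping genes; others were chosen after their values were seen, and some genes that the rule names are not reported here. The description, its lists and the set were chosen with earlier results of these data known. The alternatives were normexp background correction (offset 50), quantile normalization, median centring, the deposited table, other filters and probe rules, and leaving out arrays.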

Additional observations from a re-analysis of the deposited data

Results flagged for a closer look

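Of 140 named genes examined, 10 had an array whose gap to the nearest other array took up more of the range of the 4 levels than Dixon's critical value allows. Chance flags about 1 in 20 groups, and some of these genes were named for their spread, so the number is not read against that rate. Replicate 4 was the outlying array in 9 of them, the highest in 5 and the lowest in 4. It was high for 5 alveolar genes. Ager stood at 3.16 against -0.11 to 0.18 on the others, Clic5 at 2.25 against -2.33 to -1.68, Cldn18, an alveolar claudin, at 0.63 against -1.79 to -1.38, Nkx2-1 at 0.65 against -1.79 to -1.54, and Abca3 at 3.80 against 2.85 to 2.99. It was low for Spp1, at 2.52 against 5.30 to 5.57, Col1a1, at 7.05 against 7.58 to 7.66, Rpl35, at 9.03 against 9.25 to 9.29, and Rplp0, at 8.89 against 9.19 to 9.23. Replicate 2 was high for Aldoc, a brain-type aldolase, at 1.51 against 0.68 to 0.79.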

How the results depend on the processing

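With the class narrowed to the top 5 percent, 768 genes were bright. Of the 1537 bright genes, 1242 to 1537 stayed bright under the other alternatives, the lowest with the median probe of each gene, and 1506 to 1530 with 1 array left out. Median centring, which moved the median slide difference to -0.91, raised the median SD to 0.60 over all genes and 0.63 over bright genes; leaving out 1 array gave 0.17 to 0.24 over all genes and 0.12 (without replicate 4) to 0.20 over bright genes. With quantile normalization, the deposited table, normexp, or any 1 array left out, limma called 0 genes higher and 0 lower, with 3928, 3920, 2196 and, with arrays left out, 2307 to 6154 features at an unadjusted p under 0.05; the cause was not tested. With 1 array left out a slide held 1 array, assumed to vary like the others, and the loss of calls says nothing about stability; Mdh1b differed by 3.99 to 4.52 in those fits. Median centring called 14179 lower, and a filter of 2 arrays, which tests 31163 features, called 5790 higher and 21 lower. In the other 12 arrays, higher calls were 10336 with the filter of 2 arrays, 1652 with median centring and 2740 with quantile normalization, and lower calls 18768 with median centring. Leaving out a group gave 3212 to 3755 higher and 1166 to 2370 lower. Over the alternatives, the 8 largest named slide differences kept their direction throughout, with the call kept in 32 fits and lost in 56. Counts of bright list members stayed within 1.5 times in 678 recounts and moved further in 42; without a filter on background, basement membrane rose from 5 to 10 bright genes. The median SD of lists without each array and the deviations of lists under each scaling were chosen after seeing the data. No paired analysis was possible because no groups were compared within vehicle 6 h and replicate numbers lie within slides. The 4 arrays, and signals near background at the dim end, limit precision.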
